A study of Mus musculus with 8 samples.

Results

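Macrophages are recognised by a small set of transcription factors and by the receptors, adhesion molecules and enzymes those factors keep switched on. The 9 genes described here are the transcription factors Spi1, Cebpa, Cebpb, Maf and Gata6, the growth factor receptor gene Csf1r, the surface markers Emr1 and Itgam, and the secreted enzyme gene Lyz2. They were chosen by symbol from a table of 11996 genes. Of the 9, 8 stood in the table under that symbol, and Spi1 stood there under its older symbol Sfpi1 (ENSMUSG00000002111). All 9 passed the filter on low values, which 11400 genes passed.

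The study used RNA sequencing of C57BL/6 mouse macrophages that thioglycolate, a sterile irritant, had drawn into the peritoneum. Cells adhered to plastic for 24 h before use. The 4 groups were Ptpn1-/- cells with IL-10 (100 ng/ml for 4 h), Ptpn1-/- cells with mock treatment, wildtype cells with the same dose and time of IL-10, and wildtype cells with mock treatment. Each group had 2 samples, which the labels do not trace to single mice, and no sort beyond adherence is named. Ptpn1 encodes PTP1B, a phosphatase that acts on tyrosines of cytokine receptors and their kinases. The cytokine IL-10 restrains inflammation and signals through STAT3. The labels do not say which part of Ptpn1 was deleted, or in which cells.

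The table gives 1 authors' value per gene and group, in normalized units of signal, so no spread between replicates and no test stand behind any difference below. A log2 ratio is the log2 of the quotient of 2 groups' signals after 26.7 units were added to each, and a difference is called past 2-fold at a log2 ratio of 1 in size. All columns have the same total and the same highest value, 362618 units, so a value mainly carries a gene's rank in its group. Scaling to transcript length is not stated, so levels are compared between groups and not between genes. Ptpn1 itself was listed at 5391.5 units with IL-10 and 3836.5 under mock in knockout cells, against 6736 and 4960.5 in wildtype cells. Its signal thus remained in the knockout, and it is a weak check of the genotype labels. In RNA of a whole culture, fewer cells of a type and less RNA per cell cannot be told apart.

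PU.1, the product of Spi1, opens chromatin at most macrophage enhancers and works there together with C/EBP proteins. The receptor encoded by Csf1r binds the growth factors CSF1 and IL-34, on which macrophages depend for survival. Macrophages of different tissues add their own factors to this common set, and GATA6 is the factor of resident macrophages of the peritoneal cavity. Thioglycolate fills the cavity with cells derived from blood monocytes, in which GATA6 is known to be low.

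The factors of the common set differed little between groups. Spi1 lies on the plus strand (mm9 chromosome 2, 90936253 to 90955913), and its signal was 7227 units with IL-10 and 6761.5 under mock in knockout cells, against 6873 and 6521 in wildtype cells. Its highest group was 1.11 times its lowest, and both IL-10 groups lay above both mock groups, as in 15.4% of kept genes. Cebpa, which encodes C/EBP alpha, needed for the formation of myeloid progenitors (mm9 chromosome 7, 35904312 to 35906945, plus strand), had a signal of 6870 and 7134.5 units in knockout cells with IL-10 and mock, against 6227.5 and 6828 in wildtype cells. Both knockout groups lay above both wildtype groups, with log2 ratios of 0.14 with IL-10 and 0.06 under mock. Ratios of knockout over wildtype ran lower for longer transcripts across all genes. Once the median of genes of like length was taken off, the mock ratio was -0.005 for Cebpa and -0.06 for Spi1, where it was 0.05 as listed, so the sign of both depends on that step.

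Cebpb encodes C/EBP beta, a factor that inflammatory and STAT3 signals raise in myeloid cells (mm9 chromosome 2, 167514415 to 167515918, plus strand). Its signal was 3738 units with IL-10 and 2939 under mock in knockout cells, against 3051 and 3085 in wildtype cells. As listed, knockout cells with IL-10 stood apart, while the other 3 groups lay close together. The log2 ratio of knockout over wildtype was 0.29 with IL-10 and -0.07 under mock. After the same step for length it was 0.20 and -0.22, so that pattern depends on the step. The log2 ratio of IL-10 over mock was 0.34 in knockout cells and -0.02 in wildtype cells. The difference between these ratios, 0.36, was at least as large in size as that of 95.3% of kept genes, and it was not tested.

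Maf encodes c-Maf, a factor of mature macrophages that binds the Il10 promoter (mm9 chromosome 8, 118206842 to 118230996, minus strand). Maf stood at 2078 units with IL-10 and 2126 under mock in knockout cells, against 2270 and 2709 in wildtype cells. Wildtype cells under mock were the highest group, and both knockout groups lay below both wildtype groups. The log2 ratio of knockout over wildtype was -0.13 with IL-10 and -0.35 under mock, or -0.04 and -0.20 after the same step for length. The log2 ratio of IL-10 over mock was -0.03 in knockout cells and -0.25 in wildtype cells.

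Gata6, on the plus strand (mm9 chromosome 18, 11052508 to 11085633), was the factor with the largest genotype difference. Its signal was 388 units with IL-10 and 408 under mock in knockout cells, against 628 and 700.0 in wildtype cells. Both knockout groups were far below both wildtype groups, and the IL-10 and mock values of a genotype lay close together. The log2 ratio of knockout over wildtype was -0.66 with IL-10 and -0.74 under mock, and the length trend left both as they were (-0.66 and -0.75). Of all kept genes, 98.1% with IL-10 and 98.9% under mock had a difference of the same size or smaller.

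**Figure D1:**
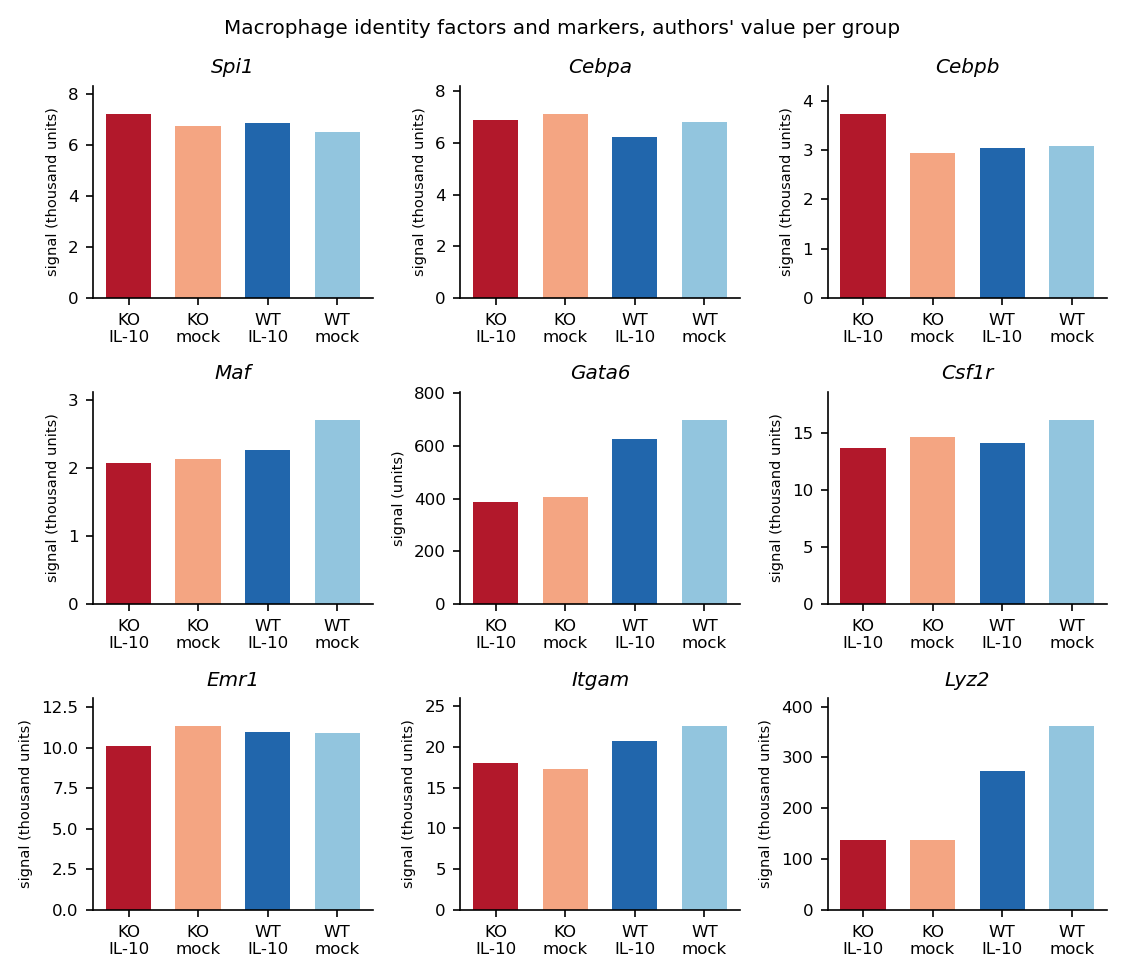
Authors' signal of the 9 genes (bars from 0, 1 value per group, own vertical axis for each gene; no error bars, since no value per sample was analysed) in knockout (KO) and wildtype (WT) cells with IL-10 or mock treatment. Spi1, Cebpa and Emr1 are nearly level, while Gata6 and Lyz2 are lower in both KO groups, Gata6 at 388 and 408 units in KO cells against 628 and 700.0 in WT cells.

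The surface receptor and markers were nearly level too, apart from Itgam. Csf1r, on the plus strand (mm9 chromosome 18, 61265226 to 61290788), stood at 13685 units with IL-10 and 14662 under mock in knockout cells, against 14130 and 16138 in wildtype cells. Both IL-10 groups lay below both mock groups, which among the 9 held for Csf1r alone and among all kept genes for 19.7%. Its log2 ratios of IL-10 over mock were -0.10 in knockout cells and -0.19 in wildtype cells. Emr1, now called Adgre1, encodes F4/80, the classical surface marker of mouse macrophages (mm9 chromosome 17, 57498109 to 57622952, plus strand). Emr1 stood at 10088.5 units with IL-10 and 11367 under mock in knockout cells, against 10969 and 10888.5 in wildtype cells. The genotype ratios had opposite signs, -0.12 with IL-10 and 0.06 under mock, and the groups of the 2 genotypes overlapped.

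Itgam encodes CD11b, the alpha chain of an integrin of myeloid cells that binds complement-coated particles. It was listed at 17992 units with IL-10 and 17324 under mock in knockout cells, against 20763 and 22587 in wildtype cells. Both knockout groups lay below both wildtype groups, with log2 ratios of -0.21 with IL-10 and -0.38 under mock. The coordinates on its row (mm9 chromosome 7, 135259950 to 135270730, plus strand) span 10781 bases, 19.3% of the gene's span of 55852 bases in GENCODE M21. That span equals that of 1 transcript which GENCODE M21 assigns to Gm49368, a gene model that overlaps Itgam and has 0 rows of its own in the table. Of the stretches of 50 bases in the longest Itgam transcript, 72.4% also occur in Gm49368. No source used here states which transcripts the Itgam value counts.

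The Itgam promoter is shown because PU.1, the product of Spi1, is known to bind purine-rich GAGGAA sequences in promoters of myeloid genes. The 250 bases before the RefSeq start of Itgam (GRCm38.p6, chr7:128062390-128062639, plus strand) hold GAGGAA in 2 places, in capitals below, the second on the opposite strand, where it reads as its reverse complement.
Itgam: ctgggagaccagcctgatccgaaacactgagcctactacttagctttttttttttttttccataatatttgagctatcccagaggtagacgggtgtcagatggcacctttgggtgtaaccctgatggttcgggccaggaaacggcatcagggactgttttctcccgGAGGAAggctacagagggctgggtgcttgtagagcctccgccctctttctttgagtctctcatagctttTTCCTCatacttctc
GAGGAA on either strand occurs in 23.3% of the 32851 promoters of the RefSeq table, and in none of the windows of Cebpa, Cebpb and Lyz2, the other members with an entry. The letters TTGCNNAA, of the kind C/EBP proteins bind, occur on either strand in 9.56% of promoters and in none of these 4. A match describes the letters only and does not show whether a protein binds there, since no binding data were available here. Spi1, Maf, Gata6, Csf1r and Emr1 had no entry in the promoter table used here.

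Lyz2 encodes lysozyme M, an enzyme that cleaves bacterial cell walls and one of the most abundant products of mouse macrophages (mm9 chromosome 10, 116714390 to 116719377, minus strand). It was listed at 136851.5 units both with IL-10 and under mock in knockout cells, against 272813 with IL-10 and 362618 under mock in wildtype cells. Both knockout groups lay below both wildtype groups. The log2 ratio of knockout over wildtype was -1.41 under mock, past 2-fold, and -0.995 with IL-10, just short of it. With the length trend subtracted these ratios were -1.59 and -1.10, and centring on the median of all genes put the IL-10 ratio at -1.003.

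Each of these values is a wide step at the top of the list. Lyz2 ranked 23rd with IL-10 and 21st under mock in knockout cells, against 10th with IL-10 and a tie of 8 genes for first place under mock in wildtype cells. The wildtype mock value is the highest in the table, and the next value below it in that group is 272893. With IL-10 the genotypes were 13 places apart, at a log2 ratio of -0.995. The log2 ratio of IL-10 over mock in wildtype cells, -0.41, is the step below the shared maximum. Galectin-3 (Lgals3), a lectin gene of the core macrophage list, stood at the same pair of values with the genotypes exchanged, at 272813 units in both knockout groups and 136851.5 in both wildtype groups. Of the 146 genes with a mean above 20000 units, 2 were at least 2-fold lower and 2 at least 2-fold higher in the knockout under mock.

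**Figure D2:**
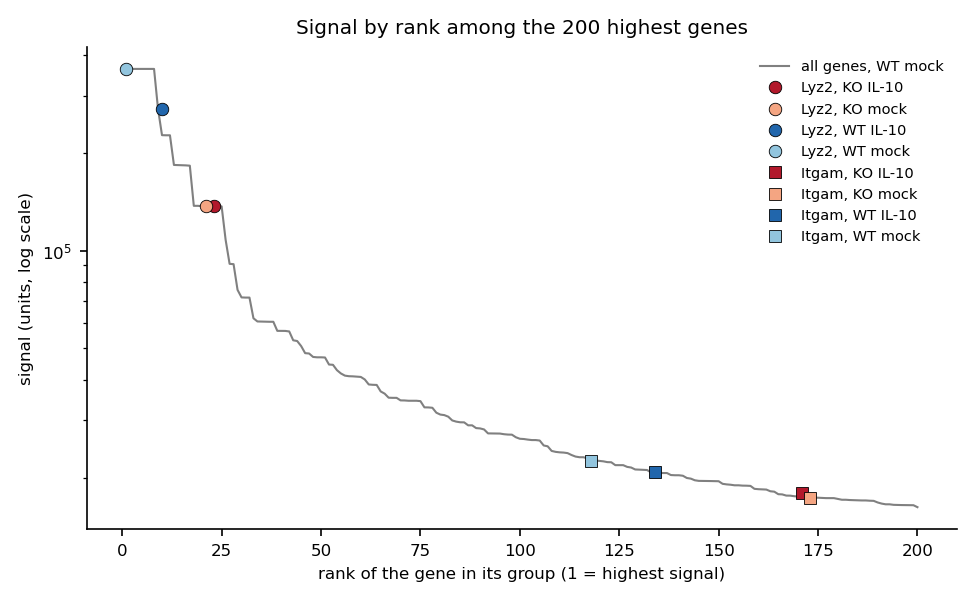
Signal (units, log scale) against rank for the 200 highest genes of wildtype (WT) cells under mock (grey line), with Lyz2 (circles) and Itgam (squares) at their rank in each of the 4 groups of knockout (KO) and WT cells. The Lyz2 points lie on the steep steps of the first 25 ranks, from 136851.5 units in both KO groups to 362618 in WT mock, while the Itgam points lie on the flat part of the line.

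Lyz1 is the tandem copy of Lyz2, used chiefly by Paneth cells of the gut, and its reads can be mistaken for those of Lyz2. It was listed at 1294.5 units with IL-10 and 1355 under mock in knockout cells, against 1577 and 1422 in wildtype cells, with log2 ratios of -0.28 and -0.07. Both knockout groups were lower than both wildtype groups for this copy as well, by a smaller ratio and at a level where rank steps are narrow. The longest transcripts of the pair, aligned end to end, are identical at 1211 of 1317 positions, and 15.4% of the stretches of 50 bases of Lyz2 also occur in Lyz1. No source used here states the read length or how shared reads were divided. The promoters of the pair are shown for their likeness: the 250 bases before the RefSeq starts (GRCm38.p6, minus strand, chr10:117282273-117282522 for Lyz2 and chr10:117292869-117293118 for Lyz1) are 78.8% identical, and capitals mark the longest shared run, 50 bases next to the start.
Lyz2: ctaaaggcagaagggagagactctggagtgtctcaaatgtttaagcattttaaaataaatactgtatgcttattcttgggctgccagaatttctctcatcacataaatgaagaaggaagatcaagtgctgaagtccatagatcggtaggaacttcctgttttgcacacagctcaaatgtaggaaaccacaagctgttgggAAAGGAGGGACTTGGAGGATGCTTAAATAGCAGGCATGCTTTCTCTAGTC
Lyz1: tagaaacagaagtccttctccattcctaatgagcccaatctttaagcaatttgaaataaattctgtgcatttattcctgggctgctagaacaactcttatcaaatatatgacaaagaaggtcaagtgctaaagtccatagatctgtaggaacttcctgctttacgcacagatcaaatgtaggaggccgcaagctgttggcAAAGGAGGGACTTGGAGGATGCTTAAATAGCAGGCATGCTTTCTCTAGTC

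Set against all genes, most of the 9 genes lay in the middle of the distribution. In knockout over wildtype under mock, 1 of 9 (Lyz2) was at least 2-fold lower, where 0.105% of kept genes were, and none was 2-fold higher, where 0.325% were. With IL-10 none was 2-fold lower, where 0.0789% were, and none higher, where 0.596% were. At 1.5-fold, 2 of 9 (Gata6 and Lyz2) were lower under each treatment, where 0.991% of kept genes were with IL-10 and 1.40% under mock. With a pseudocount 4 times as large the IL-10 ratio of Gata6 was -0.57, short of 1.5-fold. Both knockout groups lay below both wildtype groups in 4 of 9 genes (Maf, Gata6, Itgam and Lyz2), against 23.0% of kept genes, and above both in 1 (Cebpa), against 28.6%. The median log2 ratio of the 9 genes was -0.12 with IL-10 and -0.14 under mock, beside 0.01 and 0.02 over all kept genes.

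Between IL-10 and mock none of the 9 genes differed by 1.5-fold in either genotype, where 3.12% of kept genes passed that limit in knockout cells and 1.96% in wildtype cells. At 2-fold the shares of kept genes were 0.895% and 0.482%. The ratios of IL-10 over mock ran from -0.17 (Emr1) to 0.34 (Cebpb) in knockout cells and from -0.41 (Lyz2) to 0.08 (Spi1) in wildtype cells. IL-10 stood below mock in both genotypes in 4 of 9 genes (Cebpa, Maf, Gata6 and Csf1r), against 35.5% of kept genes, and above it in 1 (Spi1), against 31.2%. The difference between the genotypes' ratios was above 0 in 8 of 9 genes, with Emr1 (-0.18) the exception, where 48.7% of kept genes were above 0. It shares the wildtype mock group with the mock comparison, so the high wildtype mock values of Maf, Itgam and Lyz2 enter both. No member differed by 1.5-fold, where 0.763% of kept genes did, or by 2-fold, where 0.132% did.

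**Figure D3:**
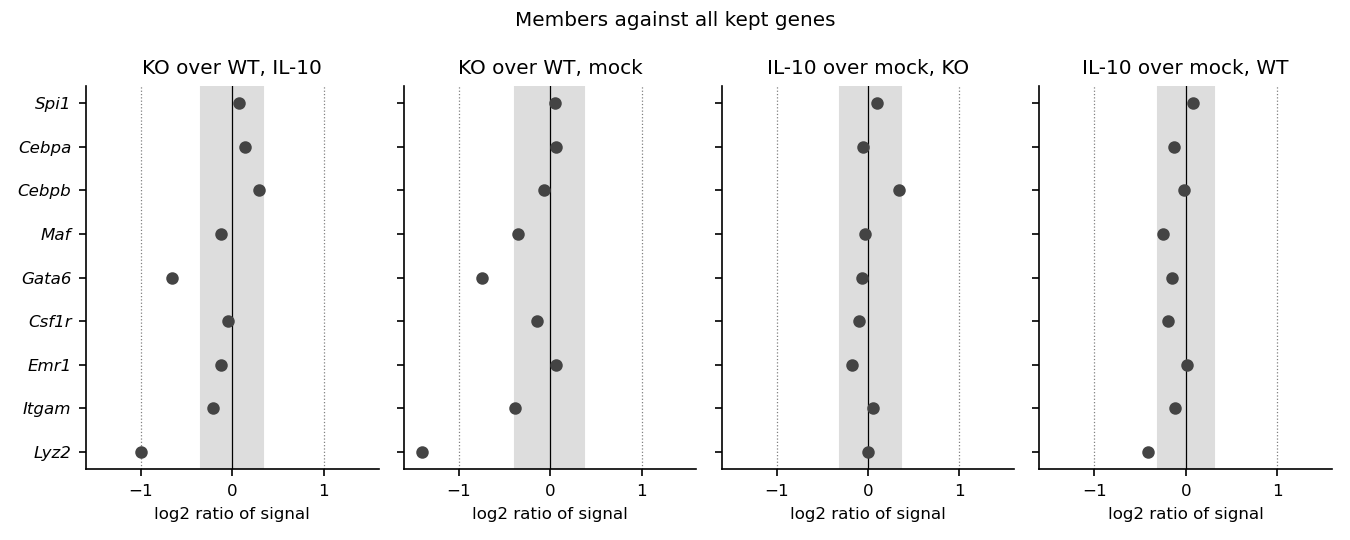
Log2 ratio of signal for the 9 genes (dots) in knockout (KO) over wildtype (WT) cells with IL-10 and under mock, and in IL-10 over mock in KO and WT cells; grey bands hold the middle 90% of the 11400 kept genes and dotted lines mark 2-fold. Gata6 and Lyz2 lie outside the band in both genotype panels, at -0.66 and -0.995 with IL-10. Itgam lies just outside it under mock (-0.38), and Lyz2 outside it for IL-10 over mock in WT cells (-0.41). No gene passes 2-fold in the panels of IL-10 over mock.

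The wider list of lineage transcription factors, 21 kept genes with 4 of the 9 among them, held larger IL-10 ratios than these 4. Tfec, a member of the MiT family found in macrophages, was the 1 factor past 2-fold, at 1505.5 units with IL-10 and 392.5 under mock in knockout cells, against 943.5 and 340.5 in wildtype cells. Its log2 ratio of IL-10 over mock was 1.87 in knockout cells and 1.40 in wildtype cells. The list's median was -0.11 in knockout cells and -0.06 in wildtype cells, beside -0.01 and 0.00 over all kept genes. Between genotypes no factor of the list was past 2-fold. The largest ratios of knockout over wildtype were in Tfec (0.66) and Klf4 (0.47), a factor of monocyte differentiation, with IL-10, and in Maf (-0.35) and Klf2 (0.34) under mock.

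**Figure D4:**
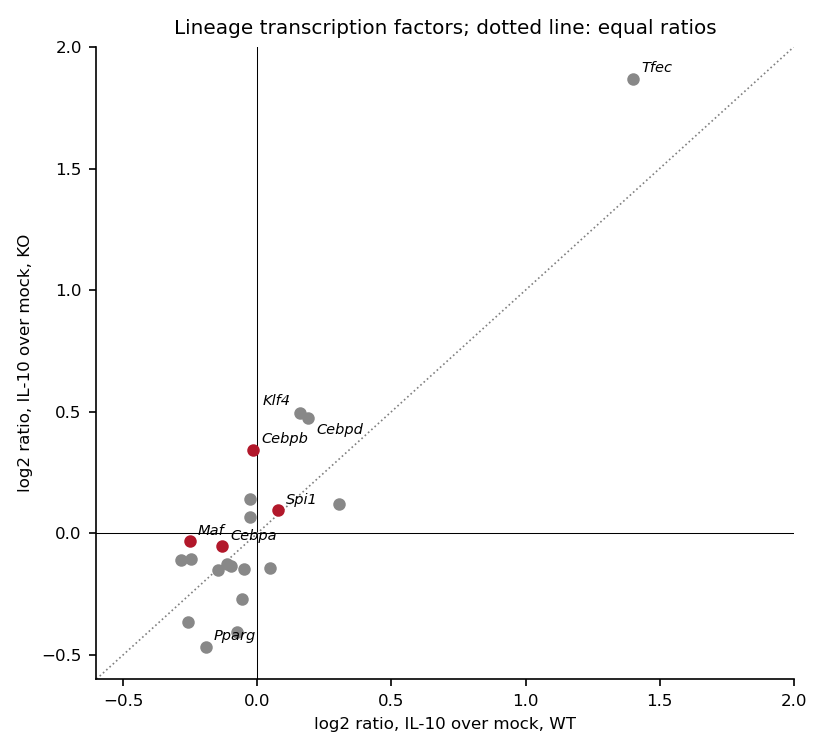
Log2 ratio of IL-10 over mock for 21 lineage transcription factors in knockout (KO, vertical axis) and wildtype (WT, horizontal axis) cells; red dots are Spi1, Cebpa, Cebpb and Maf, and the dotted line marks equal ratios. Tfec lies highest, at 1.87 in KO and 1.40 in WT cells, while the red dots lie near 0 in WT cells, from -0.25 to 0.08.

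Genes of the Csf1r pathway differed by less than 2-fold between groups. Of 13 kept genes of the CSF1 and CSF2 receptor list, none was past 2-fold in any of the 5 comparisons. The median ratio of knockout over wildtype was 0.00 with IL-10 and -0.12 under mock, with 12 of 13 genes below 0 under mock, where 45.8% of kept genes were. Il34, a ligand of the receptor, stood at 20 and 22 units in knockout cells with IL-10 and mock, against 31.5 and 39 in wildtype cells. It passed the filter's 26.7 units only through its wildtype values. Il34 is 1 of the 12 genes below 0, so that place cannot be read against the share over all genes. Cbl, a ubiquitin ligase that marks the activated receptor for breakdown, stood at 2190.5 and 2456 units in knockout cells, against 2419 and 3257.5 in wildtype cells. All 13 genes had a larger ratio of IL-10 over mock in knockout cells than in wildtype cells, where 48.7% of kept genes did, with a median difference of 0.11. The wildtype mock group enters this count and the mock count alike.

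Of the 24 kept core macrophage genes none was past 2-fold in any comparison, and the median genotype ratio was 0.00 with IL-10 and 0.06 under mock. The largest genotype ratios were those of Lgals3, given above, and of Fcgr1, the high-affinity IgG receptor gene, at 3888 and 2531.5 units in knockout cells with IL-10 and mock, against 2547 and 1453 in wildtype cells. IL-10 stood above mock in both genotypes in 6 of the 24 and below it in 6, against 31.2% and 35.5% of kept genes. At 1.5-fold, 4 were higher with IL-10 in knockout cells (Fcgr1, Msr1, Tlr4 and Pla2g15), where 2.32% of kept genes were. In wildtype cells 3 were (Fcgr1, Msr1 and Pla2g15), where 1.54% of kept genes were. In each genotype 1 was lower, where 0.807% of kept genes were in knockout and 0.412% in wildtype cells. Msr1, a scavenger receptor gene, stood at 9470 units with IL-10 and 5749.5 under mock in knockout cells, against 7279 and 4313 in wildtype cells. Pla2g15, a lysosomal phospholipase gene, had log2 ratios of IL-10 over mock of 0.85 in knockout and 0.74 in wildtype cells. Cd36, a fatty acid and scavenger receptor gene, was the 1 gene of the list 1.5-fold lower with IL-10, at 91114 units with IL-10 and 137379 under mock in each genotype, near the top of the list. In the lysozyme and granule list, Lyz2 was the 1 gene of 9 at least 2-fold lower in the knockout under mock and Ctsz, a cathepsin gene, the 1 at least 2-fold higher. Ctsz stood at 111727 units in both knockout groups, against 65639 with IL-10 and 40848 under mock in wildtype cells. It ranked 25th with IL-10 and 24th under mock in knockout cells, against 33rd and 60th in wildtype cells.

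Gata6 was set beside the genes of resident peritoneal macrophages, many of which depend on it. Of 18 kept genes of that list, 5 had both knockout groups below both wildtype groups and 4 had them above, against 23.0% and 28.6% of all kept genes. Gata6 itself is 1 of these 18 and 1 of the 5. Without Gata6 the list's median ratio of knockout over wildtype was -0.10 with IL-10 and 0.07 under mock. With Gata6 the mock median was 0.02. It was -0.08 with a filter at 5 ppm and -0.08 with the length trend subtracted, so its sign depends on the processing. Vsig4, a complement receptor gene of resident macrophages, was the 1 gene past 2-fold, lower in the knockout with IL-10, with log2 ratios of -1.07 with IL-10 and -0.90 under mock. Cxcl13, a chemokine gene of resident macrophages, differed the other way, with 0.73 and 0.88. Selp, which encodes P-selectin, was past 2-fold higher with IL-10 in both genotypes, at 212.5 units with IL-10 and 39 under mock in knockout cells, against 275 and 68 in wildtype cells. The list as a whole thus had no common direction, and Gata6 lay near its lower end.

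Markers of mesothelial cells and fibroblasts moved with the same groups as Gata6, a factor that is also expressed outside the blood lineage, in heart and gut among other tissues. All 12 markers of that list were in the table and none stood at 0. Their summed signal was 20415 units with IL-10 and 20523.5 under mock in knockout cells, against 32643 and 33986 in wildtype cells. Of 11 kept markers, 10 had both knockout groups below both wildtype groups, against 23.0% of all kept genes, and the median ratio was -0.58 with IL-10 and -0.62 under mock. Wt1, a factor of mesothelial cells, stood at 341.5 and 359 units in knockout cells with IL-10 and mock, against 495 and 511 in wildtype cells. The part of these cells in the Gata6 signal was not tested.

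**Figure D5:**
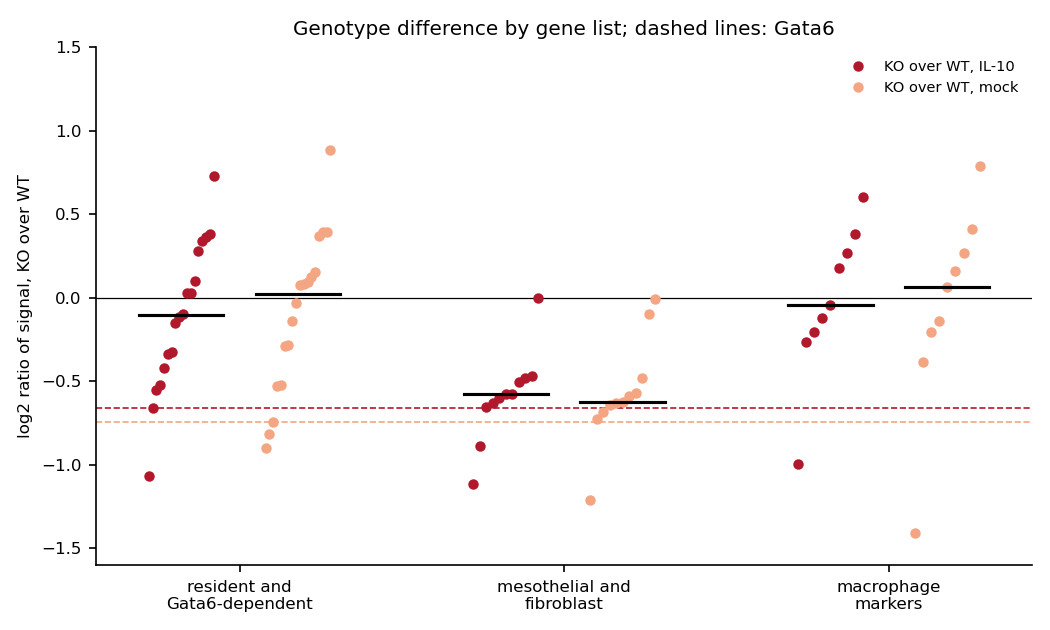
Log2 ratio of signal in knockout (KO) over wildtype (WT) cells, with IL-10 (dark red) and under mock (light red), for kept genes of 3 lists (dots; black bars, medians; dashed lines, Gata6). Mesothelial and fibroblast markers lie near the Gata6 lines, with medians of -0.58 and -0.62, while resident and macrophage genes spread on both sides of 0; the lowest macrophage dots are Lyz2.

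Likeness of pattern was measured as the distance between 2 genes' log2 signals over the 4 groups, each centred on its mean, among 9438 other genes with a mean of at least 134 units. The 3 genes nearest to Gata6 were Col4a5 (0.04), Col1a2 (0.05) and Odz4 (0.07), and 10 genes lay within 0.1. Col4a5, a basement membrane collagen gene, stood at 130.5 and 143 units in knockout cells with IL-10 and mock, against 221 and 248 in wildtype cells. Nearest to Lyz2 were Mgll (0.21), Fndc1 (0.37) and Col3a1 (0.39), with 0 genes within 0.1. The 3 nearest to Maf were Trip11, Mrc2 and Cbx5, with 274 genes within 0.1, and the 3 nearest to Itgam were Wdr7, Mum1l1 and Smg1, with 158. Cebpb had 34 genes within 0.1, the nearest being Snrpd1, 2810453I06Rik and Rab28. Spi1, Cebpa, Csf1r and Emr1 had 574 to 1269, so their flat patterns mark no gene out. With 4 values per gene the distance describes these columns only.

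Markers of macrophages and of monocytes were listed as a check of the label. Of 10 names of macrophage markers 9 were in the table, the missing name being the newer symbol of Emr1, and all 9 passed the filter. Their summed signal was 470226 units with IL-10 and 466430 under mock in knockout cells, against 560819 and 650008 in wildtype cells. Without Lyz2 the sums were 333375 and 329578 units in knockout cells, against 288006 and 287390.5 in wildtype cells, so Lyz2 sets the direction of the total. The higher sum in the knockout without it rests in turn on Cd68, at 272612 units in both knockout groups and 226524 in both wildtype groups. The other 7 markers summed to 60763 units with IL-10 and 56966 under mock in knockout cells, against 61482 and 60866.5 in wildtype cells. Of 7 monocyte markers 6 were in the table, with a summed signal of 1813 units with IL-10 and 1195.5 under mock in knockout cells, against 1407 and 821.5 in wildtype cells. Both knockout groups lay above both wildtype groups in 3 of the 6 (Ly6c2, Plac8 and Treml4), against 28.6% of kept genes. The median ratios were 0.62 with IL-10 and 0.60 under mock. Those 3 stood at 24 units or lower in both wildtype groups, under the filter's 26.7 units. They were kept only through their knockout values, so the count and medians cannot be read against the share over all genes. The part of monocytes in the values of the 9 genes was not tested.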

How the data were processed

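RNA extraction used TRIzol, with a standard Illumina library protocol, per the labels. The submitters' processing notes name RSEM, Bowtie and mm9 and give neither versions nor roles. The deposited values are the authors' normalized signal, 1 per gene and group. The submitters call them CPM, but a column total is 26705598, every value is a multiple of 0.5, and the columns share their highest value. How they were normalized and averaged is not stated. Depth per sample is unknown, so no interval or floor is given, and no p-value was computed.

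Genes with a mean of at least 1 ppm (1 part in 1000000 of the column total) were kept. Log2 ratios used a pseudocount of 1 ppm (26.7 units), which understates ratios of low genes. Knockout was compared with wildtype under each treatment, IL-10 with mock in each genotype, and the IL-10 ratios between genotypes. Where a symbol stood on more than 1 row, the row with the highest mean stood for it in a list. Alternatives were other pseudocounts and filters, centring, a 1.5-fold limit, and subtraction of the median over 20 bins of transcript length (GENCODE M21, GRCm38). Promoters are RefSeq's, GRCm38.p6. The calculation was tested on simulated data. Python 3.11.15, pandas 2.3.3 and Biopython 1.88 were used.

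The 9 genes, the 5 gene lists and the 10 marker lists were chosen with earlier results of these data known. Named genes are the 9 members, of each list those past 2-fold or otherwise the 2 largest in size, the 3 genes nearest in pattern, Lyz1 and Ptpn1. Cd36, Cd68 and single markers of other cell types were picked out after their values were known. Of the lineage transcription factor list, 1 gene is not reported here and was left out of the list's counts and medians.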

Additional observations from a re-analysis of the deposited data

How the results depend on the processing

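The count of the 9 genes past 2-fold, 0 in all comparisons but knockout against wildtype under mock, where it was 1, was the same under pseudocounts of 0.25 and 4 ppm, no filter and a filter at 5 ppm. In knockout against wildtype with IL-10 it was 1 when ratios were centred on the median of all genes and 1 with the length trend subtracted, in both cases Lyz2, which lies at the limit. At the 1.5-fold limit it was 2 with IL-10 and 2 under mock. Of 315 ratios of single genes listed, 5 came to lie past the limit, and no called ratio turned its sign. The filters and the 1.5-fold limit leave each ratio unchanged by construction, so they could move none. Another 4 (Spi1, Cebpb, Maf and Lyz2, knockout against wildtype under mock) moved by over 0.1, all with the length trend subtracted. Among the 5, Lyz2 with IL-10 also moved by over 0.1 at that step, from -0.995 to -1.10. Both Gata6 ratios passed only through the lower limit. Of 150 list medians recomputed, 3 moved by over 0.1, all in knockout against wildtype under mock. The resident peritoneal macrophage list moved with the filter at 5 ppm and with the length trend subtracted. The lysozyme and granule list moved with the length trend subtracted. The background counts over all genes rest partly on low genes: in knockout against wildtype with IL-10, 9 genes were 2-fold lower, and 19, 3 and 5 with a pseudocount of 0.25 ppm, a pseudocount of 4 ppm and the filter at 5 ppm. Under mock, 12 were lower, and 5 with 4 ppm and 6 with that filter, and 37 were higher, and 57 and 18 with the 2 pseudocounts. With IL-10 against mock, 2 genes were lower in knockout and 2 in wildtype cells, and 11 and 6 with 0.25 ppm; in knockout cells 1 was with 4 ppm and 1 with the filter at 5 ppm. The IL-10 ratio was 2-fold larger in knockout cells for 11 genes and smaller for 4; these were 19 and 11 with 0.25 ppm and 5 and 2 with 4 ppm, 5 were larger with that filter, and 2 were smaller with the length trend subtracted. No paired analysis was possible because the table holds 1 value per group, and for the same reason no replicate could be left out. Differences near the top of the list are limited by the shared maximum.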

Other observations

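Within the T cell, neutrophil and B cell marker lists, a single gene (Il7r, Csf3r and Cd22) held most of the summed signal. Of 9 T cell markers 4 were in the table, with a summed signal of 44863.5 units with IL-10 and 37094 under mock in knockout cells, against 34776 and 32971 in wildtype cells, most of it from Il7r. Lck, a kinase gene of T cells, stood at 128 units with IL-10 and 10 under mock in knockout cells, against 105 and 11.5 in wildtype cells. The T cell markers Cd2 and Cd5, below the filter, went the other way: Cd2 stood at 21 units with IL-10 and 29 under mock in knockout cells, against 14.5 and 18 in wildtype cells, and Cd5 at 28 and 31 in knockout cells, against 11 and 15.5 in wildtype cells. Cd3e, Cd3d, Cd3g, Cd4 and Cd8a had no row in the table used here. Of 12 neutrophil markers 5 were in the table, with a summed signal of 2684.5 and 2277 units in knockout cells with IL-10 and mock, against 2375.5 and 2354 in wildtype cells, most of it from Csf3r. S100a8 stood at 64 and 56.5 units in knockout cells, against 52 and 53 in wildtype cells. Retnlg stood at 121.5 and 109.5 units in knockout cells, against 26.5 and 29.5 in wildtype cells. Of 7 B cell markers 5 were in the table, with a summed signal of 2390 and 2569 units in knockout cells, against 2902.5 and 2939.5 in wildtype cells, most of it from Cd22. Ighm stood at 173 and 154.5 units in knockout cells, against 318.5 and 258 in wildtype cells.

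All 4 kept mast cell markers had both knockout groups above both wildtype groups, where 28.6% of kept genes did. The filter shaped this count. Kit passed it only through knockout cells with IL-10, at 46.5 and 25.5 units in knockout cells, against 23 and 18 in wildtype cells. Below the filter, Tpsab1 had the same order and Mcpt4 did not, at 33.5 and 18 units in knockout cells, against 20 and 26 in wildtype cells. The summed signal over 6 listed markers was 554 and 481 units in knockout cells, against 360.5 and 330 in wildtype cells. Of 7 dendritic cell markers 4 were in the table, with summed signals of 223.5 and 159 units in knockout cells, against 206 and 160 in wildtype cells. Of 8 eosinophil markers 2 were in the table, at 520 and 424.5 units in knockout cells, against 488.5 and 362.5 in wildtype cells. Of 6 erythroid markers 3 were in the table, at 108.5 and 70 units in knockout cells, against 83 and 88 in wildtype cells.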
